A study of Mus musculus with 6 samples.

Results

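A group of tumor-infiltrating CD8 T cells carried large amounts of the transcripts of granzymes C, D, E, F and G, and is called the high granzyme cells here. They were chosen by these transcripts themselves. Tumor cells with 200 to 6000 detected genes, at most 3% of UMIs from mitochondrial genes and UMIs of all of the T cell genes Cd2, Cd8a and Cd8b1 formed the base cells, and a base cell was taken when the summed UMIs of Gzmc, Gzmd, Gzme, Gzmf and Gzmg reached 20. A UMI (unique molecular identifier) stands for 1 captured transcript molecule. The rule took 1851 of the 15744 tumor base cells, of 29156 base cells in the 4 RNA libraries of the series.

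The study asked what interferon-γ (IFNγ) sensing does in CD8 T cells inside a tumor. Mice were engrafted with B16-OVA, a melanoma line that makes ovalbumin, and CD45+CD3+CD8+Tomato+ cells were sorted at day 12 from tumors and draining lymph nodes (LN). Control mice were CD8-Cre Rosa26Tomato and CD8-IFNγRKO mice were CD8-Cre IFNgR1flox/flox Rosa26Tomato, so both genotypes carried the Cre, which is driven in CD8 T cells, and the Tomato reporter. Each library pooled the cells of 3 mice, with 1 library per tissue and genotype. Genotype can therefore not be told apart from library, pool of mice or sequencing depth, no difference between genotypes has a replicate check, and no p-value is given. Intervals are 95% intervals that cover counting error only.

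Granzymes are serine proteases that cytotoxic lymphocytes store in granules and deliver into a target cell through pores made by perforin. Granzyme B, which cleaves after aspartate and starts apoptosis, is the best known, while granzymes C to G belong to a cluster of granzyme genes that expanded in rodents. Their transcripts are known to appear late and to a high level in strongly stimulated T cells and NK cells.

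The 5 genes lie on the minus strand of mouse chromosome 14 within 124.0 kb (GRCm38.p6, 56117619 to 56241647), in the order Gzme, Gzmd, Gzmg, Gzmf and Gzmc. Gzmn lies between Gzmg and Gzmf, and Gzmb lies beyond Gzmc at 56258836 to 56262334. The 150 bases before each RefSeq start site are shown because the genes were taken as 1 sum but had different proportions in the 2 genotypes. Capitals mark the cAMP response element (CRE) letters TGACGTCA or the 8 bases closest to them. The Gzmc window, and the end of the Gzmd window nearest the start site, lie inside the annotated genes.
Gzmc, chr14:56234658-56234807, minus strand: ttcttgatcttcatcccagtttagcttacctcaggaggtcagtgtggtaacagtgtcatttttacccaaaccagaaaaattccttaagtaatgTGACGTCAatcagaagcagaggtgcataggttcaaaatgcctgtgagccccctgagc
Gzmd, chr14:56132594-56132743, minus strand: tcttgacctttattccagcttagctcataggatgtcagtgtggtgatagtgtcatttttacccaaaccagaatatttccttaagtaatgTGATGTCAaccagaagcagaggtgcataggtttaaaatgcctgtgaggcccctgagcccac
Gzme, chr14:56120626-56120775, minus strand: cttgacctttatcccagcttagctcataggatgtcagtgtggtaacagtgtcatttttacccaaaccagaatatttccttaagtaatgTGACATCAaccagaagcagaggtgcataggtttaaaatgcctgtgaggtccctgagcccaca
Gzmf, chr14:56211408-56211557, minus strand: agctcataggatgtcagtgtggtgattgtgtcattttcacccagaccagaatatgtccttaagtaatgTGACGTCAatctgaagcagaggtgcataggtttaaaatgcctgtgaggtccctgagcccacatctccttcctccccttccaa
Gzmg, chr14:56159580-56159729, minus strand: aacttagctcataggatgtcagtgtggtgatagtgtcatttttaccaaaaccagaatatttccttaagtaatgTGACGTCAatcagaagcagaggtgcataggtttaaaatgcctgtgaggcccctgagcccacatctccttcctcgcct

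The CRE letters were present whole before Gzmc, Gzmf and Gzmg. At the same place Gzmd carried C4T and Gzme carried G5A, with positions counted from 1 at the 5′ end of TGACGTCA. Over the 250 bases before the start, 1.55% of 32851 RefSeq promoters held TGACGTCA on either strand. The RUNX letters TGTGGT, on either strand, were found before all 5 genes and in 14.0% of all promoters. None of the 5 held the interferon-γ activated site TTCNNNGAA (7.02% of all promoters), the AP-1 letters TGANTCA (6.75%) or the T-box letters AGGTGT (11.8%) in this window. Identity over these 250 bases ranged from 70.2% to 94.8% among the 5 genes, highest between Gzmd and Gzme, and was 43.8% to 48.0% between each of them and Gzmb. A match of letters is a description and not a site of binding.

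As a check of the labels, Ifngr1, which encodes the ligand-binding receptor chain, had a level of 601 CPM (the UMI count of a gene scaled to the total UMIs of its group of cells) in high granzyme cells and 755 CPM in other base cells of the control tumor. In the CD8-IFNγRKO tumor the values were 178 CPM and 249 CPM. The part of the gene that is deleted is not given in the sources used here, so the remaining tags may lie outside it. The sort on CD3 and CD8 and the UMIs of Cd2, Cd8a and Cd8b1 asked of every base cell fix the CD8 T cell label, so marker levels are given as a description. Cd3e, which the rule did not use, stood at 1610 CPM in control and 1057 CPM in CD8-IFNγRKO high granzyme cells. Over 7 CD8 T cell markers the median log2 ratio of high granzyme to other cells was -0.08 (control) and -0.11 (CD8-IFNγRKO), with Cd8a and Cd8b1 among them. The tumor libraries shared 72 base barcodes, 2 of them barcodes of high granzyme cells in both, and no T cell receptor clone.

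High granzyme cells made up 13.9% of tumor base cells in control mice (986 of 7106, 13.1% to 14.7%, Clopper-Pearson) and 10.0% in CD8-IFNγRKO mice (865 of 8638, 9.39% to 10.7%). The difference was 3.86 percentage points (2.83 to 4.90). Neither LN library held such a cell among 6658 control and 6754 CD8-IFNγRKO base cells, which allows shares of up to 0.0451% and 0.0444%. Only 3 control and 7 CD8-IFNγRKO LN cells had any UMI of the 5 genes, each a single UMI of Gzmc. In the tumor, 45.4% of control and 39.2% of CD8-IFNγRKO base cells had at least 1 UMI of the 5 genes. Among tumor barcodes within the limits on genes and mitochondrial UMIs, with at least 20 UMIs of macrophage or dendritic cell markers and none of Cd3d, Cd3e, Cd3g, Cd8a and Cd8b1, 7 in control and 3 in CD8-IFNγRKO, none had a UMI of the 5 genes, at median depths of 3203 and 2411 UMIs.

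A rule on summed UMIs takes deep cells more easily, and the cells it took were deep. The median high granzyme cell had 12345 UMIs in control and 17220 in CD8-IFNγRKO, against 5707 and 8638 in other base cells. The share rose with depth in both libraries. From 8000 to below 16000 UMIs it was 20.1% (18.3% to 22.0%) in control and 10.2% (9.16% to 11.3%) in CD8-IFNγRKO, and from 16000 to below 32000 UMIs it was 36.9% (33.5% to 40.4%) and 23.6% (21.6% to 25.6%). The 2 intervals did not overlap in either range. With every cell thinned to 3000 UMIs and a minimum of 6 UMIs, the shares were 17.0% and 9.91%, leaving out 1219 control and 1264 CD8-IFNγRKO cells below that depth. The control share was higher than the CD8-IFNγRKO share under all 9 alternatives run, by between 1.61 and 8.02 percentage points.

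**Figure D1:**
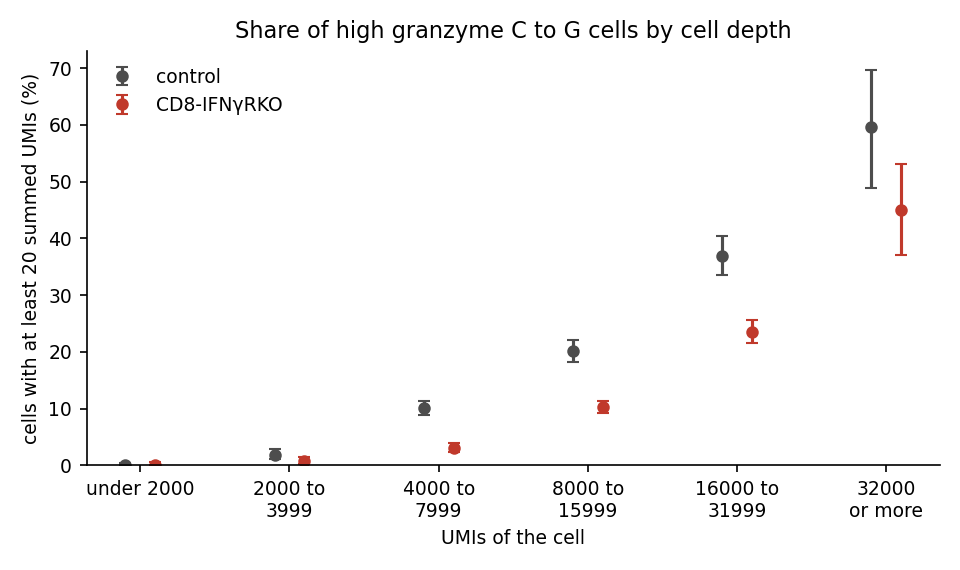
Share of tumor base cells with at least 20 summed UMIs of Gzmc to Gzmg (y axis, %) by the total UMIs of the cell (x axis), with 95% Clopper-Pearson intervals, for the control (grey) and CD8-IFNγRKO (red) tumor library. The share rises with depth in both, and the control points lie above the CD8-IFNγRKO points from 2000 UMIs up.

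The summed UMIs, which chose the cells and are given as a description, spread far above the minimum. The median high granzyme cell held 49 summed UMIs in control (quartiles 31 and 92, highest 1116) and 59 in CD8-IFNγRKO (quartiles 32 and 104, highest 1315). This was a median of 0.464% and 0.365% of the UMIs of a cell, and at most 8.12% and 5.81%. High granzyme cells held 87.6% of the 5-gene UMIs of control base cells and 88.3% of those of CD8-IFNγRKO base cells. The cut runs through a continuous range: 182 control cells had 15 to 19 summed UMIs and 132 had 20 to 24, and in CD8-IFNγRKO there were 122 and 100. Depth on either side of the cut was alike, with medians of 9665 and 9056.5 UMIs in control and 15266 and 15568 in CD8-IFNγRKO.

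The make-up of the 5-gene UMIs differed between the genotypes. The rule used only the sum, so the split among the genes was open. UMIs tag 5′ ends and were not divided by gene length. Reads that fit more than 1 of these closely related genes are normally left uncounted, so the split, above all between Gzmd and Gzme, is uncertain in both libraries.
In control high granzyme cells Gzmf led with 42.9% of the 5-gene UMIs, followed by Gzme (23.3%), Gzmd (18.9%), Gzmc (13.0%) and Gzmg (1.82%). In CD8-IFNγRKO high granzyme cells Gzmc led with 60.2%, followed by Gzmf (29.5%), Gzme (5.49%), Gzmd (4.68%) and Gzmg (0.143%).

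As levels, Gzmc stood at 733 CPM in control (719 to 747, exact Poisson) and at 3028 CPM in CD8-IFNγRKO high granzyme cells (3001 to 3055), a log2 ratio of 2.05 for CD8-IFNγRKO over control. Gzmf went the other way, with 2414 CPM in control and 1482 CPM in CD8-IFNγRKO (log2 ratio -0.70). Gzmd had 1064 and 235 CPM (log2 ratio -2.17), Gzme 1313 and 276 CPM (-2.25), and Gzmg 103 and 7.19 CPM (-3.66). Gzmc was thus higher and the other 4 lower in the receptor-deficient library. The same direction was seen in the cells below the minimum, where Gzmc took 16.4% of the 5-gene UMIs in control and 73.0% in CD8-IFNγRKO.

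Cell by cell, Gzmc made up a median of 3.72% of the 5-gene UMIs of a control high granzyme cell and 74.4% of those of a CD8-IFNγRKO one. Gzmc was the highest of the 5 genes in 81 of 986 control cells (8.22%, 6.58% to 10.1%) and in 592 of 865 CD8-IFNγRKO cells (68.4%, 65.2% to 71.5%). Gzmf was the highest in 58.4% of control cells and 29.7% of CD8-IFNγRKO cells. At least 1 UMI of Gzme was found in 86.7% of control and 35.0% of CD8-IFNγRKO high granzyme cells, although the latter were deeper. After thinning to 3000 UMIs these were 73.4% and 22.5%, and for Gzmc 47.3% and 92.7%. UMIs of at least 4 of the 5 genes were present in 440 and 69 control cells (4 and 5 genes) and in 146 and 18 CD8-IFNγRKO cells. Across single high granzyme cells Gzmd and Gzme varied together (Pearson r of log2(CPM + 1) of 0.67 over 986 control and 0.76 over 865 CD8-IFNγRKO cells, which share libraries and may share reads). The cells were chosen by the sum of the 5 genes, which bears on every such r.

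The make-up was also set out by clone. A clone is the set of base cells with the same highest α and β chain of the T cell receptor, and 4284 control and 5937 CD8-IFNγRKO base cells had one. Of the high granzyme cells, 534 in control and 637 in CD8-IFNγRKO had a clone, from 31 and 24 clones. The Gzmc share of the 5-gene UMIs ran from 7.70% to 25.5% over the 5 control clones with at least 10 high granzyme cells, and from 49.3% to 80.1% over the 9 such CD8-IFNγRKO clones. These ranges do not overlap. Among large clones with fewer high granzyme cells, 1 of CD8-IFNγRKO with 5 such cells had a Gzmc share of 26.7% and a Gzmf share of 53.5%. Clones of 1 library come from the same pool of 3 mice and are not replicates of the genotype.

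**Figure D2:**
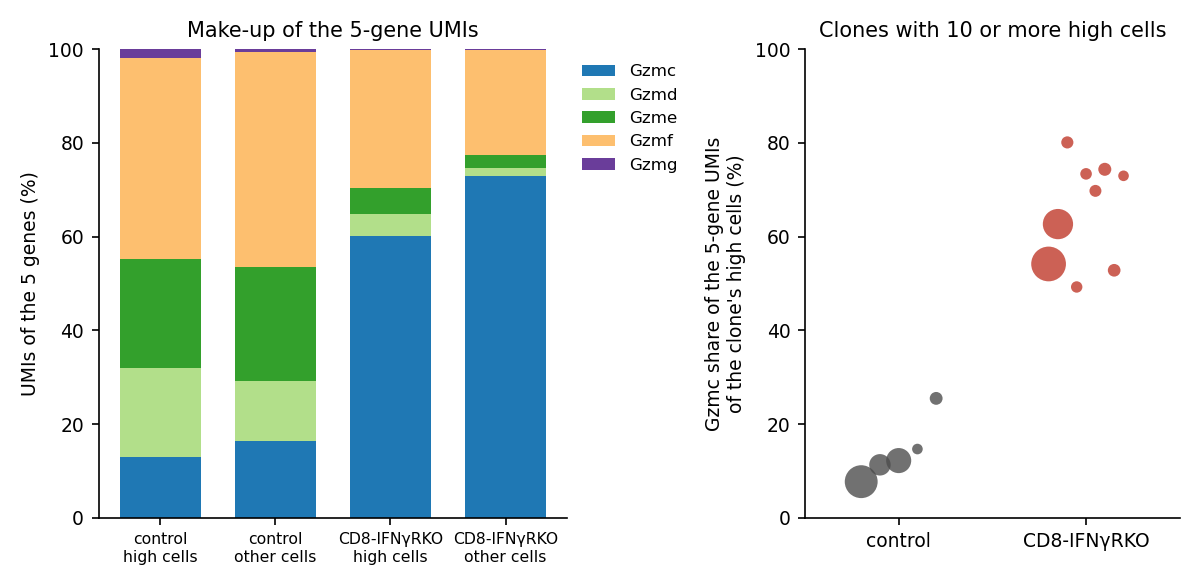
Left, percent of the summed UMIs of Gzmc to Gzmg taken by each gene in high granzyme cells and in other base cells of each tumor library. Right, Gzmc share of the 5-gene UMIs (%) in each clone with at least 10 high granzyme cells, with larger points for more such cells. Control clones lie at 25.5% or lower and CD8-IFNγRKO clones at 49.3% or higher.

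High granzyme cells with a known clone all belonged to clones of at least 2 cells, while 452 in control and 228 in CD8-IFNγRKO had no clone. Among base cells with no clone found, the share was 16.0% in control (452 of 2822) and 8.44% in CD8-IFNγRKO (228 of 2701). None of the 183 control and 364 CD8-IFNγRKO base cells whose clone had 1 cell was a high granzyme cell, which allows up to 1.64% and 0.824%. These cells were shallower, with medians of 4039 and 3997.5 UMIs. Among cells of clones with at least 2 cells the share was 13.0% in control (534 of 4101) and 11.4% in CD8-IFNγRKO (637 of 5573), a difference of 1.59 percentage points (0.257 to 2.94). Without the largest clone of each library the difference was 0.910 points, with an interval of -0.488 to 2.33 that holds 0, and after thinning to 3000 UMIs it was 6.13 points (4.68 to 7.59). The 3 largest clones held 85.2% of the high granzyme cells with a clone in control and 75.0% in CD8-IFNγRKO, against 61.4% and 50.2% of all base cells with a clone.

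Large clones differed in their share of high granzyme cells. In control, 6 clones had at least 100 base cells, and their shares ran from 2.91% (5 of 172 cells, 0.950% to 6.65%) to 25.2% (130 of 516, 21.5% to 29.2%). The largest control clone had 234 of 1104 cells (21.2%) and the next 91 of 1009 (9.02%), at median depths of 6341 and 7086 UMIs. In CD8-IFNγRKO, 13 clones had at least 100 base cells, and the shares ran from 0 of 149 cells (which allows up to 2.01%, at a median depth of 3211 UMIs) to 263 of 1463 (18.0%).

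The next question was which other genes differed between high granzyme cells and the other base cells of the same tumor. All CPM values are levels, and log2 ratios are differences between 2 levels with 1 CPM added to each. In each library the 2628 genes ranked had at least 50 CPM in high granzyme cells, in other cells or in both. Only Serpinb9b, Ifitm1, Il1r2 and Spp1 were at least 2-fold higher in both libraries (0.152% of the genes). None was at least 2-fold lower in both (0.0%). Some genes met the 50 CPM in 1 of the groups only, as Ifitm1 in CD8-IFNγRKO did in high granzyme cells (74.4 against 26.1 CPM). With a fold of 1.5, a limit added after the values were seen, 14 genes were higher (0.533%) and 16 lower (0.609%). Against other cells of matched depth 10 of these 14 and 3 of these 16 passed 1.5-fold in both libraries, so that most of the lower calls were lost. The median log2 ratio over all 2628 genes was -0.02 in control and -0.03 in CD8-IFNγRKO. The lower and upper quartiles of the genes were -0.11 and 0.07 in control and -0.16 and 0.08 in CD8-IFNγRKO.

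Serpinb9b, a serpin of the same family as the granzyme B inhibitor Serpinb9, had the highest ratios by the smaller value of the 2 libraries. It stood at 295 CPM in high granzyme and 97.1 CPM in other cells of the control tumor, and at 314 and 75.1 CPM in CD8-IFNγRKO. The log2 ratios were 1.60 (1.54 to 1.67) and 2.05 (2.01 to 2.12). Ifitm1, an interferon-inducible membrane protein, had 302 against 108 CPM in control and 74.4 against 26.1 CPM in CD8-IFNγRKO. Its log2 ratio was 1.48 in both, at a level that was lower in the receptor-deficient cells. Il1r2, the decoy receptor for interleukin-1, had 240 against 112 CPM (log2 ratio 1.09) and 176 against 54.3 CPM (1.68). Spp1, which encodes the secreted protein osteopontin, had 659 against 286 CPM (1.20) and 215 against 102 CPM (1.07).

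The other 11 of the 15 highest genes were Igfbp7, Ifitm2, Mt2, Mt1, AA467197, Tubb6, Fcer1g, Serpine2, Gldc, Gzmb and Myo10. Ifitm2 had log2 ratios of 0.92 in control and 2.10 in CD8-IFNγRKO. The metallothioneins Mt1 and Mt2, which bind zinc and other metals, each had 0.80 in control and 1.34 and 1.45 in CD8-IFNγRKO. Mt1 was abundant, at 1198 against 690 CPM and 2068 against 814 CPM. Fcer1g, the signaling chain of Fc receptors, had 125 against 50.7 CPM in control (1.29) and 74.0 against 44.8 CPM in CD8-IFNγRKO (0.71). Gzmb itself was higher too, at 4596 against 2964 CPM (0.63) and 8079 against 4221 CPM (0.94).

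**Figure D3:**
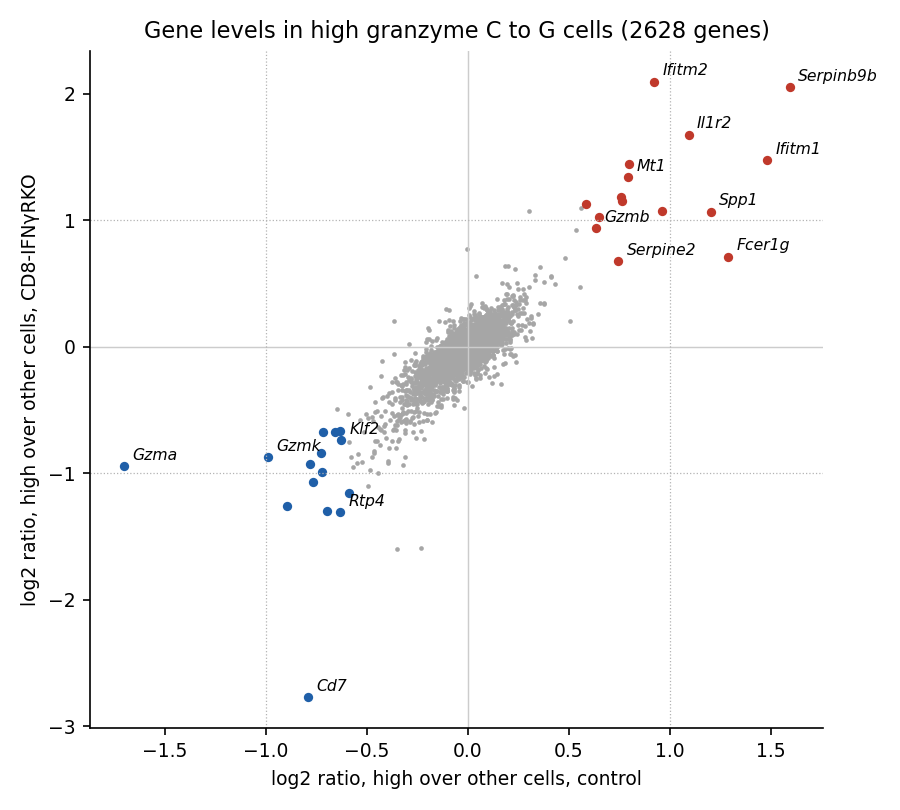
Log2 ratio of the level in high granzyme cells over that in other base cells, control on the x axis and CD8-IFNγRKO on the y axis, for 2628 genes (grey), with the 15 highest in red and the 15 lowest in blue. Dotted lines mark a 2-fold difference, which Serpinb9b, Ifitm1, Il1r2 and Spp1 exceed in both libraries.

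The lowest genes included Gzma and Gzmk, granzymes outside the chromosome 14 cluster that cleave after basic residues. Gzma had 15.8 against 53.9 CPM in control (log2 ratio -1.71) and 98.3 against 190 CPM in CD8-IFNγRKO (-0.94). Gzmk had 74.9 against 150 CPM (-0.99) and 131 against 240 CPM (-0.87). Socs3, a feedback inhibitor of cytokine signaling, followed with -0.90 and -1.26. Cd7, a surface receptor of T cells, had -0.79 in control and -2.77 in CD8-IFNγRKO, where its level was 6.74 against 51.7 CPM. The rest of the 15 lowest were Zfp36l2, Slfn1, Lamp1, Fos, Ifi213, Gramd3, Gna13, Cd6, Rtp4, Klf2 and Ier5l, with log2 ratios between -0.59 and -1.31. Of the 15 lowest, Gzma, Gzmk and Cd7 stayed 1.5-fold lower in both libraries at matched depth.

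The direction of most of these ratios, though not their size, was the same within single clones. The clones were the 5 with at least 50 high granzyme cells, 3 in control and 2 in CD8-IFNγRKO. Of the 15 highest genes 14 were above 0 in every clone, and of the 15 lowest 14 were below 0 in every clone. The exceptions were Serpine2 (-0.11 to 0.81 over the clones) and Gzma (-3.90 to 0.51). The highest Gzma value was that of the largest CD8-IFNγRKO clone, at 128 against 89.4 CPM. These genes were chosen on pooled cells that include the same clones, so agreement in direction is not a separate check. The share of all ranked genes with the same direction in every clone is not given here. Serpinb9b ran from 1.45 to 2.84, Gzmb from 0.59 to 1.20 and Il1r2 from 0.81 to 1.56. Spp1 ran from 0.24 to 1.70, Ifitm1 from 0.22 to 1.99 and Fcer1g from 0.20 to 1.55. The lowest values of these 3 were those of the largest CD8-IFNγRKO clone, where Ifitm1 had 17.2 against 14.6 CPM and an interval of its ratio (-0.18 to 0.63) that holds 0.

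Gene lists were described with a wider filter, genes with at least 100 UMIs over both tumors, so that low genes entered. Of 11319 such genes 0.557% were 1.5-fold higher and 1.37% 1.5-fold lower in both libraries, 0.115% and 0.247% were 2-fold higher and lower, 47.7% were below 0 in both, and the medians were -0.05 and -0.06. These shares hold without depth matching, and shares of all 11319 genes at matched depth are not given here. Killing genes were a list of 17. Perforin (Prf1), the pore former, had 1481 against 1060 CPM in control (0.48) and 1475 against 904 CPM in CD8-IFNγRKO (0.71). No gene of the list was 1.5-fold higher in both libraries, and Lamp1, a lysosomal membrane protein that marks degranulation at the cell surface, was 1.5-fold lower, at 35.3 against 59.1 CPM and 38.8 against 70.2 CPM, a call that ended at matched depth (-0.58 and -0.61). The list medians were -0.04 and -0.06. Of 6 granzyme-inhibiting serpins 4 were above 0 in both libraries, and the list medians were 0.26 and 0.44. These 4 were Serpinb9b, Serpinb9 (0.30 and 0.47), Serpinb6a (0.23 and 0.40) and Serpinb6b (0.41 and 0.56). The share of all 11319 genes above 0 in both is not given here. Of 4 other granzymes with at least 100 UMIs, Gzmb alone was higher and Gzma, Gzmk and Gzmm were lower in both, while Gzmn had 1 UMI in all base cells of the 2 tumors.

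Secreted factors were mixed. Of 16 cytokine and growth factor genes 2 were 1.5-fold higher and 2 were 1.5-fold lower in both libraries. The lower ones, both ligands of the tumor necrosis factor family, were sparse. Tnfsf8 had 0.764 against 2.79 CPM (-1.10) and 0.630 against 3.05 CPM (-1.31), and Tnfsf14 2.01 against 3.53 CPM (-0.59) and 0.882 against 3.30 CPM (-1.19). At matched depth both calls ended, with -0.83 and -0.56 for Tnfsf8 and -0.34 and -0.46 for Tnfsf14. The higher ones were Spp1 and Csf2, the growth factor GM-CSF, which was sparse at 8.89 against 4.43 CPM and 5.11 against 1.70 CPM. Ifng had 558 against 447 CPM in control (0.32) and 442 against 421 CPM in CD8-IFNγRKO (0.07). Ccl9, a chemokine for myeloid cells, was the 1 chemokine of 7 that was at least 1.5-fold higher in both, at 28.3 against 8.91 CPM (1.56) and 34.9 against 12.2 CPM (1.44). Of the 7, 2 were above and 3 below 0 in both. The chemokine medians were 0.17 and -0.29, and 0.12 and -0.60 at matched depth. The chemokine Xcl1 at matched depth had -0.31 in control and -2.17 in CD8-IFNγRKO (46.2 against 211 CPM). Il2ra, the high-affinity chain of the interleukin-2 receptor, had 58.9 against 39.6 CPM (0.56) and 104 against 48.1 CPM (1.10). Of the 4 genes of the metallothionein list Mt1 and Mt2 were 1.5-fold higher in both, and Mt3 had 0.30 and 1.07. At matched depth the control ratios were 0.58 for Mt1 and 0.46 for Mt2, both below 1.5-fold, and -0.09 for Mt3, while those in CD8-IFNγRKO were 1.09, 1.11 and 0.78.

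Most genes of stem-like and naive T cells were low, and less so at matched depth. Of 15 measured, 14 were below 0 in both libraries, 9 were 1.5-fold lower and 4 were 2-fold lower in both, beside 1.37% and 0.247% of all genes under the same filter. The list medians were -0.67 and -1.35. Tcf7, the transcription factor of stem-like T cells, had 3.75 against 17.4 CPM in control (-1.96) and 2.58 against 25.4 CPM in CD8-IFNγRKO (-2.88). S1pr1, the receptor for exit from lymphoid tissue, had 2.64 against 8.74 CPM (-1.42) and 2.21 against 8.88 CPM (-1.62). Klf3, a transcription factor of resting lymphocytes, had -1.52 and -1.78. At matched depth S1pr1 had -0.20 and -0.68 and Klf3 -0.36 and -0.80, and neither was 1.5-fold lower in both. These genes were sparse, with 54 and 41 UMIs of Tcf7 over all high granzyme cells of each tumor. Against other cells of matched depth Tcf7 had smaller ratios, -0.87 and -1.50. Within single clones of the control library it was too sparse to compare, with 0 UMIs on 1 side in each of the 3. Il7r was the exception in the list, with 0.04 and 0.56, and with 0.36 and 0.99 at matched depth. Against other cells of matched depth 12 of the 15 were below 0 and 1 above 0 in both, and 2 were 1.5-fold lower in both. The list medians came to -0.27 and -0.56, beside -0.04 and -0.04 over the 2628 genes of at least 50 CPM.

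Inhibitory receptors and transcription factors of T cell exhaustion had list medians a little below 0, which were smaller at matched depth. Of 13 inhibitory receptors 8 were below 0 in both libraries, beside 47.7% of the 11319 genes. None was 1.5-fold different in both, and the list medians were -0.10 and -0.33. At matched depth 5 were above and 7 below 0 in both. The list medians were then -0.02 and -0.11, beside -0.04 and -0.04 over the 2628 genes of at least 50 CPM. Pdcd1, which encodes PD-1, had 815 against 818 CPM in control and 615 against 620 CPM in CD8-IFNγRKO. Its log2 ratios at matched depth were 0.12 and 0.07. Havcr2, which encodes TIM-3, had 0.19 and 0.42. Among 25 exhaustion and effector transcription factors 19 were below 0 in both libraries, none was 1.5-fold higher in both and 2 were 1.5-fold lower, with list medians of -0.12 and -0.29. At matched depth 6 were above and 17 below 0 in both, and the same 2 were 1.5-fold lower. The list medians were then -0.07 and -0.16. The 2 lower ones were sparse, Tox2 at 0.972 against 3.30 CPM (-1.13) and 0.567 against 3.01 CPM (-1.35), and Maf with log2 ratios of -0.94 and -1.49. Eomes, a T-box factor of CD8 T cells, had -0.55 and -0.71. Tox, a driver of the exhausted state, had 90.9 against 120 CPM (-0.40) and 62.7 against 118 CPM (-0.90), and -0.39 and -0.76 against other cells of matched depth.

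Interferon and early activation genes were mostly lower in high granzyme cells. All 17 type I interferon genes measured were below 0 in both libraries, 5 of them 1.5-fold lower in both, with medians of -0.49 and -0.84. Ifit3 had 15.2 against 26.7 CPM (-0.77) and 9.33 against 33.2 CPM (-1.73). Of 26 IFNγ response genes 21 were below 0 in both libraries, 1 of them 1.5-fold lower in both, and the medians were -0.31 and -0.44. Ifitm1 and Ifitm2 of the same list were 1.5-fold higher. Irf1, a transcription factor induced by interferons, had -0.36 and -0.80. Of 14 immediate early genes 13 were below 0 in both, 2 of them 1.5-fold lower in both, with medians of -0.29 and -0.46. Against other cells of matched depth the medians were smaller, at -0.12 and -0.42 for the type I interferon, -0.14 and -0.16 for the IFNγ response and -0.08 and -0.18 for the immediate early genes, beside -0.04 and -0.04 over the 2628 genes of at least 50 CPM. At matched depth 14 of the 17 type I interferon genes were below 0 in both and none was 1.5-fold lower in both, and Ifit3 had -0.12 and -0.91. The 1.5-fold lower calls of the IFNγ response and immediate early lists also ended.

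The medians of the metabolic and cell cycle lists depended on depth, and those of the S phase list changed direction with it. The 16 glycolysis genes had medians of 0.04 and 0.24, the 18 cholesterol synthesis genes 0.11 and 0.19, the 43 S phase genes 0.16 and 0.09 and the 54 G2/M genes 0.06 and -0.09. At matched depth the glycolysis medians were 0.02 and 0.15 and the cholesterol synthesis medians 0.06 and 0.08. No gene of these 4 lists was 1.5-fold different in both libraries, also at matched depth. Without matching, 30 S phase genes were above and 2 below 0 in both libraries, and 7 G2/M genes were above and 16 below. Of the 11319 genes 47.7% were below 0 in both without matching, and the share above is not given here. Against other cells of matched depth 33 of the 43 S phase genes were below 0 in both and none above, with medians of -0.16 and -0.09. Of the 54 G2/M genes 50 were then below 0 in both and none above, with medians of -0.29 and -0.33. Over the 2628 genes of at least 50 CPM the matched medians were -0.04 and -0.04. The share of all genes below 0 in both at matched depth is not given here.

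The levels of these genes also changed with the granzyme sum below and above the limit of 20 UMIs. Serpinb9b went from 72.4 CPM in control cells with no UMI of the 5 genes through 153 CPM at 10 to 19 summed UMIs to 427 CPM at 100 or more. In CD8-IFNγRKO it went from 48.6 through 174 to 448 CPM, and in both libraries each of the 7 groups was higher than the one before. Gzmb went from 2612 to 5612 CPM in control and from 3608 to 10076 CPM in CD8-IFNγRKO between the lowest and the highest group. Tcf7 behaved differently. It stood at 27.0 CPM in control and 38.3 CPM in CD8-IFNγRKO cells with no such UMI, and already at 4.68 and 7.94 CPM in cells with 1 to 4. Gzma in CD8-IFNγRKO fell and then rose, from 219 CPM with no such UMI to 56.2 CPM at 20 to 49. It was 82.9 CPM at 50 to 99 and 171 CPM at 100 or more. In control Gzma had 69.4, 12.6, 18.4 and 18.5 CPM in the same groups. Depth rises along the same groups, from medians of 5371 to 16524 UMIs in control and 7686.5 to 18571 in CD8-IFNγRKO. Against other cells drawn to the same depth, the log2 ratios were 1.58 and 1.94 for Serpinb9b, 0.64 and 0.83 for Gzmb, 0.58 and 1.09 for Mt1 and -0.96 and -0.73 for Gzmk. Fos went to -0.36 and -0.28 from -0.72 and -0.99, and Rtp4 to -0.13 and -0.67 from -0.63 and -1.31. Cd7 had -2.16 in CD8-IFNγRKO in place of -2.77.

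**Figure D4:**
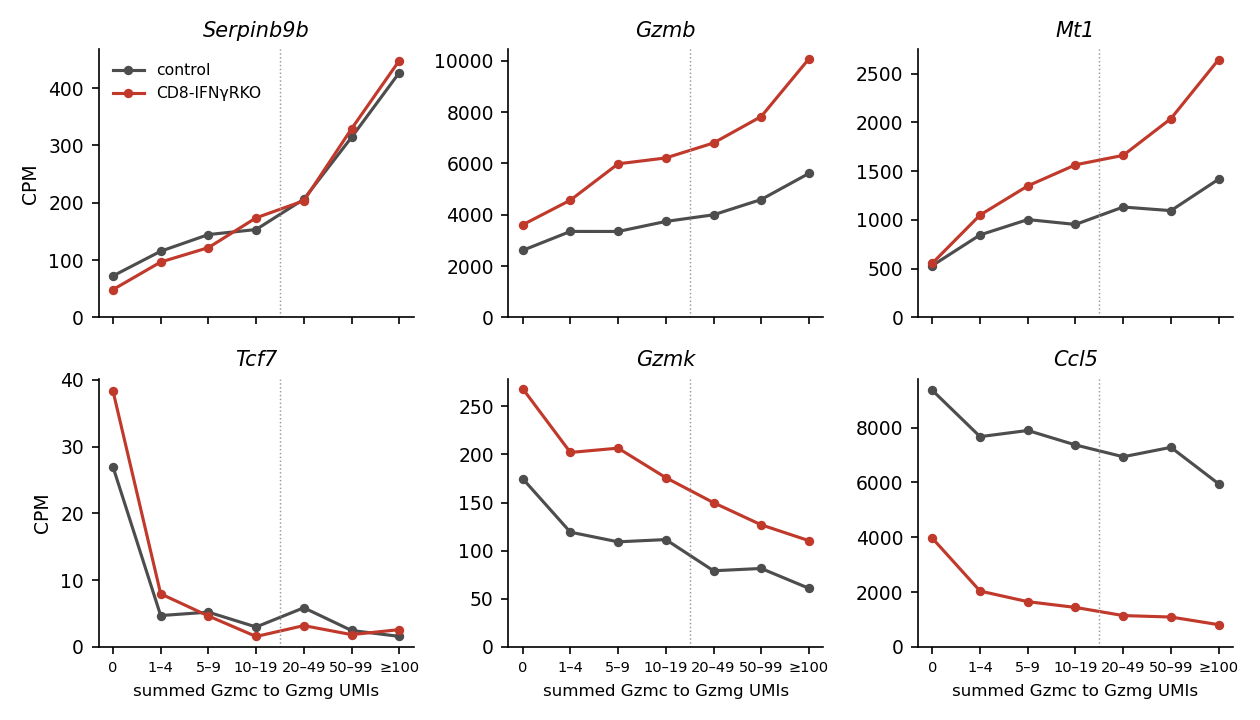
Level (CPM, y axis) of 6 genes in tumor base cells grouped by their summed UMIs of Gzmc to Gzmg (x axis) in the control (grey) and CD8-IFNγRKO (red) library. The dotted line marks the minimum of 20 UMIs, and Serpinb9b, Gzmb and Mt1 climb while Tcf7, Gzmk and Ccl5 decline from the lowest to the highest group.

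Markers of other cells the sort could hold were sparse, and their part in the results was not tested. The 15 macrophage or dendritic cell markers summed to 75.4 CPM in high granzyme and 132 CPM in other cells of the control tumor, and to 38.9 and 53.6 CPM in CD8-IFNγRKO, with Cd74 the most abundant. The 6 B cell markers summed to 2.99 against 9.02 CPM and 5.55 against 21.4 CPM, with Pax5 at 0 UMIs. The 7 NK cell markers summed to 60.1 against 44.1 CPM and 29.8 against 24.9 CPM, nearly all from Klri2, and Ncr1 had no UMI in any high granzyme cell. The 10 neutrophil or mast cell markers summed to 9.86 against 3.37 CPM and 5.67 against 2.19 CPM, mostly from Kit and then Mcpt8, while S100a9, Mcpt4 and Elane were at 0 UMIs. The 6 gamma delta T cell markers, led by Tcrg-C2, summed to 15.3 against 12.5 CPM and 17.0 against 29.8 CPM, with Trdv4 at 0 UMIs. Cd4 or regulatory T cell markers (5, led by Ikzf2) summed to 45.7 against 51.4 CPM and 36.6 against 62.0 CPM, melanoma markers (7) to 4.45 against 3.88 CPM and 3.84 against 2.67 CPM, and fibroblast or endothelial markers (7) to 4.03 against 4.77 CPM and 2.40 against 4.88 CPM. The median share of UMIs from mitochondrial genes was 0.666% against 0.627% in control and 0.750% against 0.719% in CD8-IFNγRKO.

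The last comparison set the high granzyme cells of the 2 genotypes side by side. Of 2877 genes with at least 50 CPM in either, 22 were at least 2-fold higher in CD8-IFNγRKO (0.765%) and 45 at least 2-fold lower (1.56%), around a median log2 ratio of 0.03, and 53.1% were higher in CD8-IFNγRKO at any size. Some genes met the 50 CPM in 1 genotype only, which favors large ratios. Gzma did so in CD8-IFNγRKO (98.3 against 15.8 CPM in control) and Areg in control (157 against 20.5 CPM in CD8-IFNγRKO). With a minimum of 200 CPM in either, 2 genes were 2-fold higher and 16 lower, of 710. Ratios in the other base cells, not matched for depth, are given in parentheses.

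Gzma, although low in high granzyme cells, had the highest ratio of CD8-IFNγRKO over control among them, 2.56 (other cells 1.80), at 98.3 against 15.8 CPM. Enzymes of cholesterol synthesis followed. Fdps had 99.2 against 30.3 CPM (1.68, other cells 1.48) and Idi1 56.4 against 21.6 CPM (1.34, other cells 1.40), and 8 of 18 genes of that list were 2-fold higher and none lower, beside 1.59% and 2.1% of the 11319 genes with at least 100 UMIs. The list median was 0.86 (other cells 0.59). The heat shock genes Hspa1a and Hspa1b had 1.51 (1.91) and 1.33 (1.68). Chchd10, a mitochondrial protein, had 1.58 (other cells 0.90), and Ndrg1, a hypoxia-induced gene, 1.24 (0.75). Tmem97, Fabp5 and Hmgn1 completed the 10 highest, with 1.34 (1.32), 1.33 (1.05) and 1.24 (1.10).

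Areg, a ligand of the epidermal growth factor receptor, was lowest, at 20.5 CPM in CD8-IFNγRKO against 157 CPM in control high granzyme cells (-2.88, other cells -3.10). Ccl5, a chemokine that attracts T cells and myeloid cells, came next. It had 1027 against 6774 CPM (-2.72), a larger distance than in other cells (-1.47, at 3117 against 8640 CPM). Other cells matched in depth to the high granzyme cells of their library had 2090 against 7510 CPM, so part of this gap went with depth. Serpine2 had -2.12 (other cells -2.06), Ifitm1 -2.01 (-2.00) and Csf1, the macrophage growth factor, -1.93 (-1.88). Ccl1 had 22.6 against 77.6 CPM (-1.73, other cells -0.75). Nr4a1, a transcription factor induced by T cell receptor signals, had 70.3 against 220 CPM (-1.63, other cells -1.02). Nrn1, Ifngr1 and Wls completed the 10 lowest, with -1.82 (-1.51), -1.75 (-1.59) and -1.66 (-1.44).

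**Figure D5:**
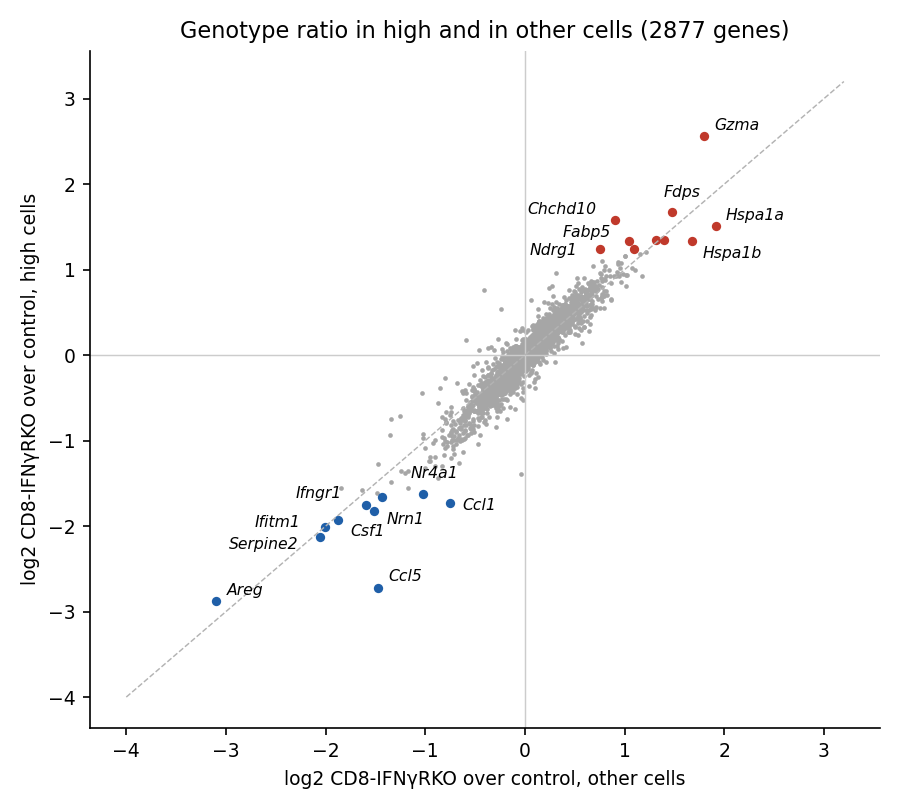
Log2 ratio of CD8-IFNγRKO over control in high granzyme cells (y axis) against the same ratio in other base cells (x axis) for 2877 genes, with the 10 highest in red and the 10 lowest in blue and a dashed line of equal ratios. Ccl5 (-2.72 against -1.47) and Ccl1 (-1.73 against -0.75) lie below the line and Gzma (2.56 against 1.80) above it. The other cells were not matched for depth.

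By list, 19 of 26 IFNγ response genes were lower in CD8-IFNγRKO than in control high granzyme cells, 3 of them 2-fold, with a median of -0.40 beside -0.26 in other cells. All 16 glycolysis genes and all 43 S phase genes were higher, beside 51.3% of the 11319 genes. The glycolysis median was 0.58 in high granzyme and 0.41 in other cells, and the S phase median 0.69 and 0.76, so that the S phase shift was no larger in high granzyme cells. Of 13 inhibitory receptors 12 were lower, and 3 were 2-fold lower, with medians of -0.41 in high granzyme and -0.44 in other cells. These were Lag3 (416 against 845 CPM, log2 ratio -1.02 and in other cells -0.79), Tigit (204 against 449 CPM, -1.13 and -0.62) and Cd200r1 (10.5 against 23.0 CPM, -1.06 and -0.62). The median share of a cell's UMIs from S and G2/M genes was 0.347% in control and 0.933% in CD8-IFNγRKO high granzyme cells, and 0.305% and 0.770% in other cells. With only cells below the median of this share in their library, 103 genes were 2-fold higher and 75 lower in CD8-IFNγRKO. Gzma had a ratio of 1.69 in place of 2.56, Hmgn1 of 2.32 in place of 1.24 and Fabp5 of 2.04 in place of 1.33.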

How the data were processed

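Sorted CD8 T cells were profiled by 10x 5′ single-cell RNA sequencing in 4 libraries, with T cell receptor contigs for the 2 tumor libraries. The authors deposited raw UMI counts of 32285 genes per barcode, made with Cell Ranger 6.0.0 on mm10 per the file headers and the labels. Tumor libraries held 66786816 (control) and 104973053 (CD8-IFNγRKO) UMIs in 11369 and 12214 barcodes, with medians of 6306 and 9399.5 UMIs per base cell. The high granzyme cells and all gene lists were chosen with earlier results of these data known.

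UMIs were summed over the cells of a group and scaled to CPM, and log2 ratios were taken after adding 1 CPM. With 1 library per group no test was possible, and the design stated so. Genes were ranked with at least 50 CPM in high granzyme or in other cells, in both libraries, and 100 UMIs over both tumors. For the genotype ratio the 50 CPM held for the high granzyme cells of either genotype. The 5 granzymes of the rule were left out. A 2-fold difference was the limit. Named genes were the 15 highest by the smaller and 15 lowest by the larger ratio of both libraries, and the 10 highest and 10 lowest of the genotype ratio. List members, genes plotted by granzyme sum and clone values beyond these were chosen after earlier results were seen. Intervals were Clopper-Pearson for shares, exact Poisson for CPM and conditional binomial for ratios. A limit for 0 cells was 3 counts of the total. Scrublet, run in scanpy 1.11.5, called 0 doublets in either tumor library and so did not work here, and doublets were kept. Median scores were 0.149 in high granzyme against 0.127 in other cells of control, and 0.130 against 0.119 in CD8-IFNγRKO. Tables were handled in pandas 2.3.3 and numpy 2.4.6, intervals came from scipy 1.17.1 and alignments from biopython 1.88 (Python 3.11.15), and the scripts were tested on simulated data. Promoter sequences and gene positions came from RefSeq (GRCm38.p6), in which all 5 genes were matched. Some members of the gene lists are not reported here by name. Alternatives covered the minimum, depth, filters, scaling, doublets, clones and cycling.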

Additional observations from a re-analysis of the deposited data

Results flagged for a closer look

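Chchd10, a mitochondrial protein, had opposite directions in the 2 tumors, with log2 ratios of high granzyme to other cells that were -0.36 (control) and 0.31 (CD8-IFNγRKO). Nrn1, a membrane-anchored protein first known from neurons, did so in the other sense, with 0.10 in control and -0.21 in CD8-IFNγRKO. Neither difference between genotypes was tested, since each genotype is 1 library.

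Barcodes outside the base filter also reached 20 summed UMIs of Gzmc to Gzmg, 62 in the control and 65 in the CD8-IFNγRKO tumor. Their median depths were 6038.5 and 11063 UMIs. Of these, 47 and 41 lacked a UMI of Cd2, Cd8a or Cd8b1, and 15 and 20 had over 6000 genes. Gzmc took 13.5% and 55.4% of their 5-gene UMIs.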

How the results depend on the processing

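The share of high granzyme cells was higher in control by 3.86 percentage points. The difference was 6.10 with a minimum of 10 UMIs, 1.87 with 40, 8.02 with a sum of at least 0.2% of the UMIs of the cell, 7.07 after thinning and 1.61 with no minimum of Cd2, Cd8a and Cd8b1. Among expanded clones thinning gave 6.13 in place of 1.59 points. The cause of these changes was not tested. Genes at least 2-fold higher in high granzyme cells of both tumors numbered 10 with a minimum of 10 CPM, 2 with 200 CPM and 14 with a fold of 1.5, against 4. Lower genes, against 0, numbered 4 with 10 CPM, 4 as a mean over cells, 2 with other cells of at most 4 UMIs, 2 in low cycling cells, 2 after thinning, 1 without the largest clone and 16 with a fold of 1.5. In the genotype ratio 22 genes were higher, and 11 with 10 CPM added, 66 with a minimum of 10 CPM, 2 with 200 CPM, 42 as a mean over cells and 103 in low cycling cells. The 45 lower genes became 127, 16 and 75 with minimums of 10 and 200 CPM and in low cycling cells. The Gzmc share of 13.0% in control was 13.3% with a minimum of 40 UMIs, 3.72% as a median over cells, 14.4% without the largest clone, 11.2% in low cycling cells and 14.0% in depth-matched cells. The 60.2% in CD8-IFNγRKO was 60.9% with a minimum of 10 UMIs, 59.5% with 40 and 59.5% in depth-matched cells, 74.4% as a median and 62.8% without the largest clone. Of 900 values of named genes under these alternatives 0 changed sign and 10 moved by over 1.5-fold. The named genes were the highest and lowest of the same cells, so few changes of sign could arise. The same count over all ranked genes is not given here. The fold of 1.5, the settings of the Gzmc share, the depth-matched list medians and the thinned and clone settings for genes over other cells were chosen after seeing the data. The split of cells by Xist and Y-linked genes was not run, since it could not be made in both libraries. No paired analysis was possible because each group is 1 library.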

Other observations

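High granzyme cells in which Gzmc made up over 50% of the 5-gene UMIs, a split chosen after the data were seen, numbered 55 in control and 547 in CD8-IFNγRKO. Compared with the 931 and 318 remaining high granzyme cells, none of 2573 genes was at least 2-fold higher or lower in both libraries. Il2ra, the high-affinity chain of the interleukin-2 receptor, was the highest by the smaller of the 2 ratios, at 115 against 54.8 CPM in control (log2 ratio 1.06) and 115 against 81.0 CPM in CD8-IFNγRKO (0.51). The chemokine gene Xcl1 followed with 2.27 and 0.49, at 167 against 33.8 CPM and 51.2 against 36.2 CPM. On the lower side Fcer1g, the signaling chain of Fc receptors, had 69.9 against 129 CPM in control (-0.88) and 56.9 against 108 CPM in CD8-IFNγRKO (-0.92). The cells with mostly Gzmc were deeper, with medians of 17702 against 12115 UMIs in control and 17988 against 15026 in CD8-IFNγRKO, and the part of depth in these values was not tested.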
